A study of Mus musculus with 24 samples.

Results

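Globins, enzymes of heme synthesis and red cell genes were measured as transcripts in mouse spermatids on Illumina bead arrays. The set was chosen by gene symbol, as every probe annotated to Hba-a1, Hbb-bs, Hbb-bt, Alas2, Alas1, Fech, Slc4a1, Ahsp or Bpgm. These symbols held 20 of the 45281 probes on the arrays, and 8 of the 9 symbols had a probe, among 19057 symbols with a probe in all. Ahsp, a chaperone of alpha globin, was not analysed here. Of the 20 probes, 17 passed a filter that asks for a detection p under 0.05, that is a signal above the negative control beads, in at least 6 arrays, as did 19086 of all probes.

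The arrays covered 4 groups of 6 samples from mice aged 7 weeks. Round spermatids and condensing spermatids, an earlier and a later stage of the haploid male germ cell, each came from wild-type mice and from mice with a combined knockdown of Cbp and p300 in cells after meiosis. Cbp and p300 are histone acetyltransferases that act as coactivators of transcription. The strain, the promoter and construct behind the knockdown, the way in which the stages were separated, and any pooling of animals do not appear in the sources used here. Nor do the labels say whether replicates are separate animals, so that p-values measure only the spread between these samples. In such bulk RNA, fewer cells of a type and less RNA per cell cannot be told apart.

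Adult hemoglobin joins alpha globin, here Hba-a1, to beta globin, here Hbb-bs and Hbb-bt, around the iron-bearing ring heme. Heme synthesis starts in the mitochondrion with 5-aminolevulinate synthase, which has an erythroid form, Alas2, and a form used by most other tissues, Alas1. Its later enzymes include Alad, Uros, Urod, Cpox and Ppox, and it ends with Fech, ferrochelatase, which inserts the iron. Red cells further use Slc4a1, the band 3 anion exchanger of the membrane, and Bpgm, which makes the 2,3-bisphosphoglycerate that lowers the oxygen affinity of hemoglobin. Globin and Alas2 transcripts are a hallmark of the red cell lineage, and every cell that builds cytochromes needs the rest of the heme pathway.

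The stretch of 250 bases before the start of the 3 globin genes and of both synthases is shown because the globins and Alas2 moved together between the stages while Alas1 moved the other way. The sequences are from RefSeq on build GRCm38.p6, 5′ to 3′ along each gene. They lie at chr11:32283422-32283671 on the plus strand for Hba-a1, at chr7:103827929-103828178 on the minus strand for Hbb-bs and at chr7:103813924-103814173 on the minus strand for Hbb-bt. Those of the synthases lie at chrX:150547167-150547416 on the plus strand for Alas2 and at chr9:106247955-106248204 on the minus strand for Alas1, of which the table holds 2 windows. Capitals mark 4 short motifs, searched on both strands. GATAA is the core that erythroid GATA factors bind and reads TTATC on the opposite strand. CCAAT, the box found in many promoters, then reads ATTGG there. CACCC, a motif of Klf factors, is written GGGTG on that strand. TATAA, the core of the TATA box, reads TTATA on it.
Hba-a1: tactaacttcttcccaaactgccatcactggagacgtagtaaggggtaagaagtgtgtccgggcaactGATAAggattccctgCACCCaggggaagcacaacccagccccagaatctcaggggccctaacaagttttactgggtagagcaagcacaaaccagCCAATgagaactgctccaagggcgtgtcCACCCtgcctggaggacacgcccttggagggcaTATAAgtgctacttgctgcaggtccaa
Hbb-bs: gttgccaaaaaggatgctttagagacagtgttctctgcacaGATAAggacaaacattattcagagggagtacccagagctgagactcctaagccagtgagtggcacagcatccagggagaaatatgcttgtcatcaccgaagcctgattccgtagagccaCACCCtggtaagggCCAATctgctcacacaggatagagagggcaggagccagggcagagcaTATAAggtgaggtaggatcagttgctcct
Hbb-bt: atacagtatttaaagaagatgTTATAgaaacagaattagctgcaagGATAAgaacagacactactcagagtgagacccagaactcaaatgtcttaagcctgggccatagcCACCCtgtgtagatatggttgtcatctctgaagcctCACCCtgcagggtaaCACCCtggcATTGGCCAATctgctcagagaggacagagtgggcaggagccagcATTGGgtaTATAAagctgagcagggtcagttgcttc
Alas2: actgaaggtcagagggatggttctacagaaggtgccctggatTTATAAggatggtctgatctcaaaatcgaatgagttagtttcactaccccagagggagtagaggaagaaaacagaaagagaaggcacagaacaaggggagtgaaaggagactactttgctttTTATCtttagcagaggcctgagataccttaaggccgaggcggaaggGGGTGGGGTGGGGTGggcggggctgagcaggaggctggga
Alas1: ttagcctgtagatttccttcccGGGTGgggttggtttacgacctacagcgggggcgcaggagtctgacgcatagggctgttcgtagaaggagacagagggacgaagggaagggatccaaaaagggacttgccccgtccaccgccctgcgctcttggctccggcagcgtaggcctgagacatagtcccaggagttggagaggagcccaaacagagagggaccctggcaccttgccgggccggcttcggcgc

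GATAA had 1 copy in each of the windows of Hba-a1, Hbb-bs, Hbb-bt and Alas2, and 22.6% of 32851 RefSeq windows of this length hold it. The Alas1 window holds a single marked motif, 1 copy of CACCC. The CCAAT box occurred in the 3 globin windows, with 1, 1 and 3 copies in Hba-a1, Hbb-bs and Hbb-bt, and is held by 33.8% of all windows. CACCC occurred in all 5 windows, with 3 copies each in Hbb-bt and Alas2, those of Alas2 lying end to end, and is held by 52.0% of all windows. TATAA, held by 22.8% of all windows, began 27 to 29 bases before the start in the 3 globin genes, and in Alas2 it lay 207 bases before it, where it overlaps its reverse form. Hbb-bt holds a second copy, 229 bases before the start. Matches of 5 letters are a description of these windows and show no binding.

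An array had between 15687 and 18411 detected probes. Precision here is limited by how many arrays each group has. The knocked-down genes did not differ detectably at transcript level, with knockdown minus wild type at 0.01 ± 0.17 (log2, SE) for Crebbp and 0.05 ± 0.17 for Ep300 in round spermatids, and -0.11 ± 0.17 and -0.02 ± 0.17 in condensing spermatids, so these probes do not check the labels. All 8 spermatid markers, such as Tnp1, Prm1 and Acrv1, were detected on all 24 arrays. Round wild-type array 3 and round knockdown arrays 8 and 10 were the least like their groups, with mean correlations of 0.975, 0.978 and 0.976 over 19086 probes against 0.981 to 0.990 for every other array. Stage and knockdown differences that rest on them are given with and without them. Relations between genes among round arrays are given without arrays 3 and 10 alone.

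Globin transcripts were far higher in condensing than in round samples, in both genotypes. Of the 11 globin probes, 9 were detected on all 24 arrays. In wild type these 9 were called higher at the condensing stage (limma, adjusted p under 0.05), by 5.99 to 6.61 log2 with standard errors of 0.25 to 0.31, and the highest adjusted p among them was 4.03e-16. The other 2, ILMN_2544056 of Hbb-bs and ILMN_1235372 of Hbb-bt, passed the filter only through the condensing arrays, where they are high, so that they had to differ and add no support. No round array overlapped a condensing array on any of the 11. In the knockdown the 9 probes were called as well, by 5.76 to 6.29 log2, with a highest adjusted p of 9.67e-16. Stage changed much of the transcriptome. In wild type 62.9% of all probes tested were called, 27.9% higher and 35% lower, and 41.7% did not overlap between the stages. In the knockdown 62% were called, 28% higher and 34% lower, and 39.1% did not overlap. The median difference of all 19086 probes was -0.06 in wild type and -0.05 in the knockdown.

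Hba-a1, the alpha globin, was read by probe ILMN_1212702. Its deposited intensity ran from 218.7 over a median of 371.3 to 597.2 in wild-type round samples and from 259.6 over 517.6 to 749 in knockdown round samples. In condensing samples it ran from 17042 over 20112 to 22817 in wild type and from 19352 over 22918 to 26411 in the knockdown. The lowest condensing array thus stood far above the highest round array, while the genotypes overlapped within each stage. On the normalized log2 scale the means were 7.62 ± 0.79, 8.22 ± 0.93, 14.12 ± 0.16 and 14.31 ± 0.11 (SD, n = 6) in the order round wild type, round knockdown, condensing wild type and condensing knockdown. The stage difference was 6.50 ± 0.31 (SE) in wild type, a 90.7-fold change with a limma adjusted p of 2.12e-16, and 6.09 ± 0.31 in the knockdown, with an adjusted p of 7.96e-16. Hba-a2, an almost identical copy of Hba-a1, was not analysed here, and the Hba-a1 probe may read transcripts of both.

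Hbb-bs, a beta globin, had 6 probes. Its brightest probe, ILMN_1229203, ran from 262.3 over a median of 553.7 to 838.4 in intensity in wild-type round samples and from 325.8 over 720.4 to 1034 in knockdown round samples. In condensing samples it ran from 19046 over 22306 to 26284 in wild type and from 20737 over 26938 to 28464 in the knockdown. Round arrays thus spread over several-fold, and condensing arrays lay close together. The normalized means were 8.32 ± 0.73, 8.80 ± 0.91, 14.31 ± 0.10 and 14.56 ± 0.16 log2 in the same order of groups, and the stage difference was 5.99 ± 0.29 in wild type (63.6-fold, adjusted p = 4.03e-16) and 5.76 ± 0.29 in the knockdown.

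Among the other Hbb-bs probes, 4 gave wild-type stage differences between 6.05 and 6.40 log2 (ILMN_2545963, ILMN_1244316, ILMN_1255462 and ILMN_1223244) and, like the brightest probe, separated all round from all condensing arrays. The sixth, ILMN_2544056, was dimmer: it was detected on 3 and 1 of 6 round arrays of wild type and knockdown and on all 12 condensing arrays, with means of 4.96, 5.01, 11.52 and 11.75 log2. Its stage difference, 6.55 ± 0.15 in wild type and 6.74 ± 0.15 in the knockdown, is taken against values near background, and over the other settings it ran from 4.49 to 7.04 and from 4.69 to 7.09. In wild-type condensing samples it lay 3.65 log2 below the top of the scale.

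Hbb-bt, the second adult beta globin, had 4 probes. ILMN_1236718 ran from 229.6 over a median of 408.1 to 629.5 in intensity in wild-type round samples and from 283 over 592.9 to 786.5 in knockdown round samples. It reached 16732 over 18853 to 21051 in wild-type condensing samples and 18552 over 21409 to 23135 in knockdown condensing samples. The stages stood apart and the genotypes overlapped, as for Hba-a1. Its stage difference was 6.28 ± 0.29 log2 in wild type and 5.80 ± 0.29 in the knockdown. Probes ILMN_1239117 and ILMN_1216452 gave 6.17 and 6.61 in wild type. The dimmest globin probe, ILMN_1235372, was detected on no wild-type round array, and was detected on 5 of 6 knockdown round arrays and all 12 condensing arrays. Its wild-type means of 4.86 and 9.60 log2 correspond to a level at least 23.3-fold higher in condensing samples (adjusted p = 1.14e-19, with no weight as a test, since the probe was kept for its condensing values).

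The bright probes lay near the top of the scale in condensing samples, which limits how exact their folds are. Each array was normalized to the same highest value, 15.17 log2, and 9 of the 11 globin probes averaged above 13 log2 in condensing samples of either genotype. ILMN_1229203 of Hbb-bs ranked between 63 and 101 among 45281 probes on the wild-type condensing arrays, and between 20 and 71 on the knockdown condensing arrays. On wild-type round arrays the same probe ranked between 4270 and 8435. Since the adult globins are alike in sequence, the probes may share signal and are not independent measurements.

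As a share of the background-corrected signal of all 45281 probes, the 11 globin probes together took 0.0069% to 0.0223% on wild-type round arrays (median 0.0137%). They took 0.00844% to 0.0342% on knockdown round arrays (median 0.024%). In condensing samples the share was 1.00% to 1.15% in wild type (median 1.08%) and 1.15% to 1.28% in the knockdown (median 1.25%). These are shares of bead signal, not of molecules.

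**Figure D1:**
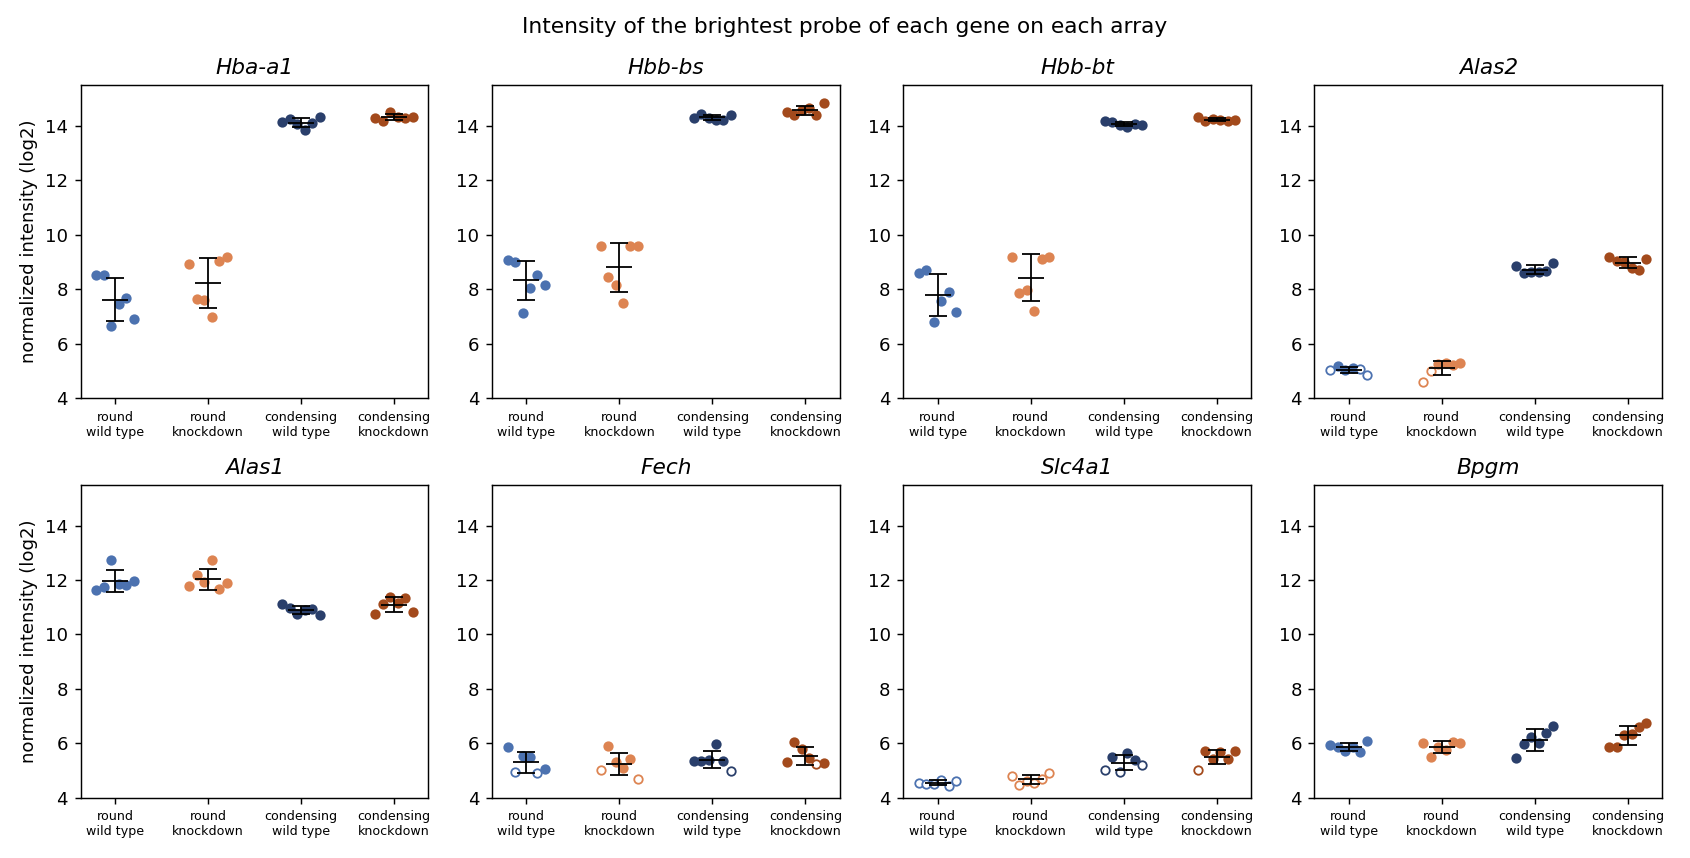
Normalized log2 intensity of the brightest probe of each of the 8 measured genes on each array, by group (6 arrays per group). Filled points are arrays on which the probe was detected, open points arrays on which it was not, and bars are the mean ± SD. Globins and Alas2 separate the stages, Alas1 is lower at the condensing stage, and Fech, Slc4a1 and Bpgm are dim, with Fech and Slc4a1 not detected on many arrays.

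No stage difference of this kind was measured for other globins. Of 12 on the list, 9 had a probe and 4 passed the filter, namely the theta globin Hbq1b, the muscle oxygen store Mb (myoglobin), the neural globin Ngb and the widely expressed Cygb (cytoglobin). In wild type 0 of these 4 were called by limma, with differences from -0.23 for Mb to 0.23 for Cygb. The embryonic globins Hba-x and Hbb-y, and Hbq1a, were not detected on any array. Hbb-b2, a beta globin allele of other mouse strains, was detected on 2 knockdown round arrays alone. In the knockdown 1 of the 4 was called, Cygb, at 0.97 ± 0.15 log2 (adjusted p = 2.85e-06), against 62% of all probes. The condensing knockdown against wild type gave 0.61 for Cygb (adjusted p = 0.076). Cygb is named here after its values were seen.

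Alas2, the erythroid synthase that sets the pace of heme production in red cell precursors, was also much higher in condensing samples. Its single probe ILMN_2675874 ran from 132.7 over a median of 148 to 153.6 in intensity in wild-type round samples and from 124.1 over 147.5 to 154.1 in knockdown round samples. These are values at the edge of detection, and the probe was detected on 3 and 4 of the 6 arrays. In condensing samples it ran from 390 over 430.9 to 486.9 in wild type and from 404.9 over 533.1 to 614.9 in the knockdown, and was detected on every array. The normalized means were 5.04 ± 0.11, 5.11 ± 0.27, 8.72 ± 0.15 and 8.97 ± 0.20 log2 (SD, n = 6) for round wild type, round knockdown, condensing wild type and condensing knockdown. The stage difference was 3.68 ± 0.12 (SE) in wild type, 12.8-fold with a limma adjusted p of 1.14e-19, and 3.87 ± 0.12 in the knockdown, with an adjusted p of 4.11e-20. Because the round values sit at background, this size depended on the background correction: over the other settings it ran from 1.93 to 3.94 in wild type and from 2.12 to 4.05 in the knockdown.

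Alas1, the synthase of most other tissues, was bright in spermatids and moved in the other direction. Probe ILMN_2664040 ran from 4010 over a median of 4310 to 5896 in intensity in wild-type round samples and from 3755 over 4046 to 6264 in knockdown round samples. It fell to a range of 1460 over 1718 to 2095 in wild-type condensing samples and 1333 over 2231 to 2594 in knockdown condensing samples, with no overlap between the stages. The normalized means were 11.96 ± 0.40, 12.03 ± 0.39, 10.90 ± 0.14 and 11.10 ± 0.26 log2. The stage difference was -1.05 ± 0.17 in wild type (2.07-fold lower, adjusted p = 4.18e-06) and -0.93 ± 0.17 in the knockdown (adjusted p = 2.29e-05). The highest round arrays were array 3 in wild type and array 10 in the knockdown, both at 12.7 log2. Without arrays 3, 8 and 10 the difference was -0.91 in wild type and -0.73 in the knockdown, with adjusted p-values of 1.46e-07 and 1.18e-05. Both synthases have a single probe each, and bead signals of different probes give no comparison of their levels.

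Along the rest of the heme pathway, 2 of 4 further enzymes with a tested probe rose between the stages in wild type and 0 fell, each read by its brightest probe, against 27.9% and 35% of all probes. The median of the 4 was 0.49 against -0.06 for all probes. Alad, which joins 2 molecules of 5-aminolevulinate, rose by 1.10 ± 0.10 log2 (adjusted p = 3.85e-10). Urod, the uroporphyrinogen decarboxylase, rose by 0.87 ± 0.13 (adjusted p = 8.67e-07). In the knockdown the same enzymes were at 1.07 and 0.88, and again 2 of 4 were called. Uros, which closes the porphyrin ring, gave -0.20 (adjusted p = 0.236) with its brightest probe, while its 2 dimmer probes were called lower, at -0.41 and -0.46 with adjusted p-values of 0.0304 and 0.0172, so that the call for Uros depends on the probe. Cpox, the coproporphyrinogen oxidase, gave 0.12 with an adjusted p of 0.553. Both Ppox probes were below the filter.

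Fech, the last enzyme of the pathway, was dim, and 0 of its 2 tested probes passed the test in any comparison under the main normalization. Probe ILMN_1228534, detected on 4, 4, 5 and 5 of 6 arrays in round wild type, round knockdown, condensing wild type and condensing knockdown, had means of 5.30 ± 0.39, 5.24 ± 0.41, 5.40 ± 0.32 and 5.52 ± 0.33 log2. Its stage difference was 0.09 ± 0.19 in wild type (adjusted p = 0.693) and 0.28 ± 0.19 in the knockdown (adjusted p = 0.211). Probe ILMN_2710731, detected on 8 arrays in all, gave -0.10 ± 0.14 and -0.15 ± 0.14 with adjusted p-values of 0.559 and 0.357. Both probes changed sign with the scaling of the arrays, so no direction is given. When arrays were scaled on the probes detected on all of them, ILMN_1228534 passed at 0.53 in wild type (adjusted p = 0.0145) and 0.62 in the knockdown (adjusted p = 0.00528), and ILMN_2710731 at 0.44 in wild type (adjusted p = 0.00758). That scaling raised the median of all probes in wild type from -0.06 to 0.27. Of the 2 further Fech probes, ILMN_1252066 was detected on 2, 0, 2 and 1 arrays of the groups in that order and ILMN_1229519 on none of the 24, and neither was tested.

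**Figure D2:**
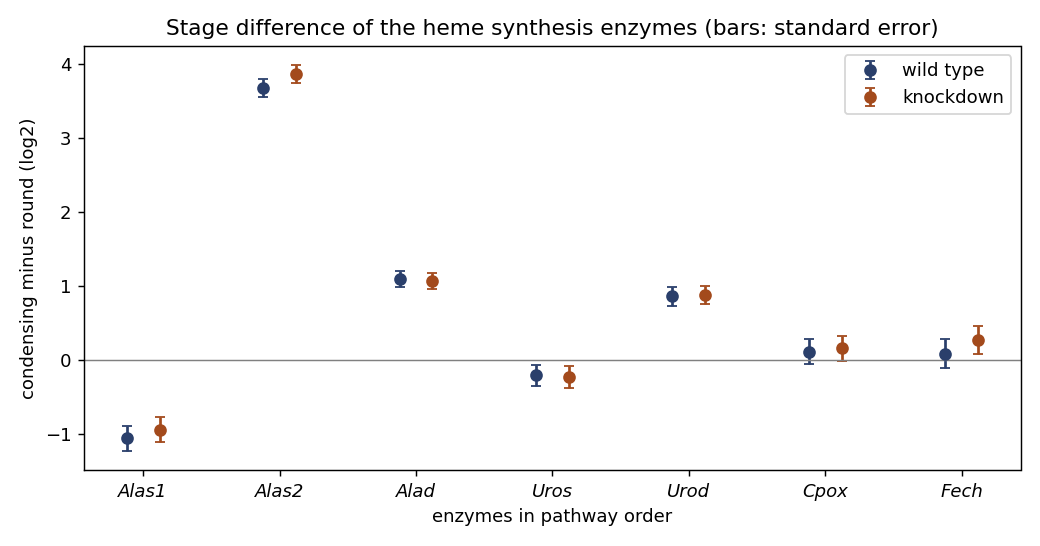
Condensing minus round difference in log2 intensity for the brightest tested probe of each heme synthesis enzyme, in the order of the pathway, with standard errors, for wild type and knockdown. Alas1 lies below 0 and Alas2, Alad and Urod above it in both genotypes. The Cpox probe was detected on few arrays and the Fech probe not on all.

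Of the 17 member probes tested, 13 were called higher and 1 lower at the condensing stage in wild type, against 27.9% and 35% of all probes, and 14 higher and 1 lower in the knockdown, against 28% and 34%. In either genotype 14 did not overlap between the stages, against 41.7% and 39.1% of all probes. Of these probes 3 passed the filter only through the condensing arrays, namely ILMN_2544056, ILMN_1235372 and the Slc4a1 probe. Among the other 14, 10 were called higher and 1 lower in wild type and 11 higher and 1 lower in the knockdown.

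Slc4a1, the anion exchanger of the red cell membrane, stayed close to background. Its probe ILMN_1227675 was not detected on any round array and was detected on 3 and 5 of 6 condensing arrays of wild type and knockdown, so that it passed the filter only through the stage at which it was higher. The intensity ran from 114.9 over 126.8 to 133.8 in wild-type round samples and from 116.6 over 128.8 to 136.5 in knockdown round samples. It ran from 135.7 over 137.8 to 154.1 in wild-type condensing samples and from 121 over 154.5 to 162.9 in knockdown condensing samples. After normalization no round array overlapped a condensing array in either genotype, while the unnormalized knockdown values did overlap. The normalized difference was 0.73 ± 0.13 log2 in wild type and 0.82 ± 0.13 in the knockdown. Measured against the dimmest detected probes of the round arrays, these are levels at least 1.17-fold and 1.37-fold higher. The adjusted p-values of 1.48e-05 and 2.64e-06 carry no weight as a test, since the probe was kept for its condensing values.

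Bpgm, the bisphosphoglycerate mutase, was detected on all 24 arrays with probe ILMN_2553448 and showed the smallest called difference. Its means were 5.86 ± 0.15, 5.87 ± 0.21, 6.12 ± 0.40 and 6.29 ± 0.36 log2, and arrays of the stages overlapped in both genotypes. The stage difference was 0.26 ± 0.16 in wild type (adjusted p = 0.16) and 0.42 ± 0.16 in the knockdown (adjusted p = 0.0261). Without arrays 3, 8 and 10 the knockdown value was 0.30 with an adjusted p of 0.151, and leaving out knockdown round array 8 or knockdown condensing array 23 or 24 alone also ended the call. A second Bpgm probe, ILMN_2707588, was not detected on any array.

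**Figure D3:**
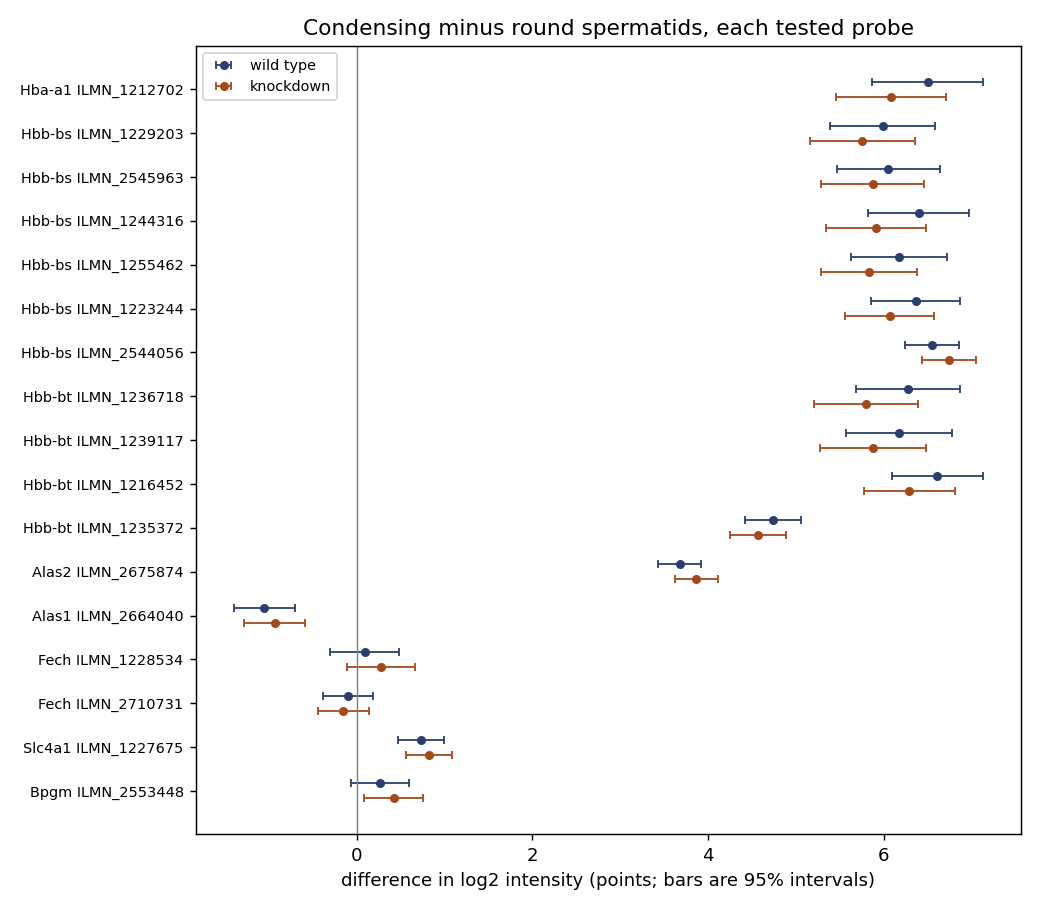
Condensing minus round difference in log2 intensity of each of the 17 tested probes, in wild type and knockdown, with 95% confidence intervals. The 11 globin probes lie between 4.57 and 6.74, Alas2 at 3.68 and 3.87, Alas1 below 0, and the remaining probes between -0.15 and 0.82.

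Genes that handle heme and iron were mixed. Of 30 on the list 23 were tested, and in wild type 13 rose and 4 fell between the stages, against 27.9% and 35% of all probes, with a median of 0.46 log2 against -0.06 for all probes. The largest called differences in wild type were those of Ftl1 and Fth1, the light and heavy chains of the iron store ferritin, at 2.44 and 1.12, of the heme transporter Slc48a1 at 1.79 and of the biliverdin reductase Blvrb at 1.55. In the knockdown 15 rose and 5 fell, against 28% and 34% of all probes. There Ftl1, Fth1, Slc48a1 and Blvrb were at 2.13, 1.32, 1.39 and 1.69. Hmox1, the inducible heme oxygenase, was not detected on any array.

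Of 37 other genes linked to the erythroid lineage, 33 had a probe and 17 were tested. In wild type 9 rose and 2 fell, against 27.9% and 35% of all probes, with a median of 0.27 against -0.06 for all probes. Their share called in either direction is near the 62.9% of all probes. Of the 17, 11 were detected on every wild-type round array and 9 on all 24 arrays. The rise of a gene that passed the filter only through the condensing arrays has no weight as a test. The largest called rises were Cd59a, a complement inhibitor, at 1.94, the transcription factor Nfe2 at 1.67, the carbonic anhydrase Car2 at 1.46 and the mitophagy receptor Bnip3l at 1.28. In the knockdown 9 rose and 1 fell, against 28% and 34% of all probes. The brightest probe of 12 genes was not detected on any of the 24 arrays, namely those of Ank1, Car1, Epb42, Gata1, Gypc, Icam4, Kel, Rhd, Slc14a1, Tal1, Tmcc2 and Trim58. These include structural and blood group proteins of the red cell membrane (Ank1, Epb42, Kel and Rhd) and the master regulators of the lineage, Gata1 and Tal1. The summed normalized intensity of the 33 genes was 5751 to 7268 on wild-type round, 5380 to 7635 on knockdown round, 12290 to 14000 on wild-type condensing and 11880 to 12670 on knockdown condensing arrays.

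Many tested markers of other cell types also rose between the stages. Over all probes 27.9% were called higher and 35% lower in wild type, and 28% and 34% in the knockdown. A marker can pass the filter through the condensing arrays alone, and the rise of such a marker has no weight as a test. Whether the markers that rose are those detected on round arrays is not given here. Of the 10 leukocyte and platelet markers, 2 were tested and both rose in wild type, Cd52 by 1.52 and Coro1a by 1.32. Of these 2, 1 was detected on every wild-type round array. Ptprc, S100a8, S100a9 and Ppbp, the defining genes of leukocytes, granulocytes and platelets, were not detected on any array, and the summed intensity of the 9 markers with a probe was 234.2 to 279.1 on wild-type round and 330.3 to 441.9 on wild-type condensing arrays. In the knockdown these sums were 236.2 to 266.1 and 309.1 to 364.7. Of 7 tested macrophage markers, 4 were detected on every wild-type round array. Of the 7, 5 rose and 0 fell in either genotype. Their sums were 430.6 to 677.3 and 1502 to 2368 in wild type and 382 to 635.9 and 1465 to 2141 in the knockdown. Of 6 tested endothelial markers 4 rose in wild type, 3 rose in the knockdown and 0 fell in either. Of the 6, 3 were detected on every wild-type round array. The endothelial sums were 476.6 to 540 and 1140 to 1350 in wild type and 540.3 to 626.4 and 1034 to 1197 in the knockdown.

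Sertoli cell markers showed the largest shift of these lists. All 4 tested Sertoli markers rose in wild type, with a median of 3.36 log2 and sums of 377.2 to 454.9 on wild-type round and 3751 to 4515 on wild-type condensing arrays. In the knockdown the sums were 379.2 to 603.1 and 4215 to 5106. Amh was not detected on any array, and 3 of the 4 tested Sertoli markers were detected on every wild-type round array. Of 3 tested Leydig cell markers 2 rose, and 2 of the 3 were detected on every wild-type round array. The Leydig sums were 316 to 748.5 and 2283 to 3133 in wild type and 422.3 to 708.4 and 2072 to 3100 in the knockdown. Star and Hsd3b1 were not detected. Of the 8 spermatid markers 2 rose and 4 fell in wild type, against 27.9% and 35% of all probes. In the knockdown 1 rose and 4 fell, against 28% and 34%. The spermatid sums were 111600 to 121600 on wild-type round and 105500 to 112600 on wild-type condensing arrays. In the knockdown they were 113800 to 130600 and 102400 to 111900. The part of these other cells in the globin and Alas2 values was not tested.

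The knockdown was not called for any member probe. In round spermatids 0 of 17 member probes passed, at an adjusted p of 1 for each, against 0.00524% of all probes, with 0% higher and 0.00524% lower. An unadjusted p under 0.05 was reached by 3 member probes, all globins, and by 656 of 19086 probes overall. The 11 globin probes all had positive estimates, from 0.05 to 0.68 log2, with standard errors of 0.15 to 0.31. For Hba-a1 the value was 0.60 ± 0.31, with a 95% confidence interval from -0.02 to 1.23, and for ILMN_1229203 of Hbb-bs it was 0.49 ± 0.29, from -0.11 to 1.09. The groups overlapped on every member probe, as they did for all but 0.189% of all probes.

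The intervals allow a knockdown level of round globins of up to 238% of wild type. Without arrays 3, 8 and 10 the globin estimates ran from 0.03 to 0.93, with adjusted p-values from 0.794 to 1 and 0 calls. The globin share of signal on these arrays was 0.0069%, 0.015% and 0.00844%, and 1 of them is wild type and 2 are knockdown. On the 12 round arrays fitted by themselves 0 of 11 globin probes were called, and 1 had an unadjusted p under 0.05.

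In condensing spermatids 0 of 17 member probes passed either, against 0.466% of all probes, 0.183% higher and 0.283% lower. The globin estimates were again all positive but small, from 0.14 to 0.30 log2, with adjusted p-values from 0.76 to 0.952. Hba-a1 gave 0.19 ± 0.31, from -0.44 to 0.82, and Hbb-bs 0.26 ± 0.29, from -0.35 to 0.86. On 2 probes of Hbb-bs, ILMN_1244316 and ILMN_1223244, every knockdown array lay above every wild-type array, with a mean difference of 0.19 log2 on both, and 1.13% of all probes did not overlap in this comparison. ILMN_1244316 stood at 14.13 to 14.23 log2 in wild type and at 14.25 to 14.50 in the knockdown. Alas2 was at 0.25 ± 0.12, with an interval from 0.01 to 0.50, an unadjusted p of 0.045 and an adjusted p of 0.576 by limma, while 1597 probes in all had an unadjusted p under 0.05.

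These standard errors share the spread of both stages, and globins spread far more among round arrays, with SDs of 0.21 to 0.95 in the knockdown against 0.05 to 0.39 among condensing knockdown arrays. A fit to the 12 condensing arrays alone, added after these spreads were seen, gave globin standard errors of 0.07 to 0.17. Under it 6 of 11 globin probes had an unadjusted p under 0.05 and 0 were called, with adjusted p-values from 0.204 to 0.795, and 0.299% of all probes were called.

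Alas1 differed by 0.08 ± 0.17 between the genotypes in round and 0.19 ± 0.17 in condensing spermatids. Fech gave -0.06 ± 0.19 and 0.12 ± 0.19 with ILMN_1228534, Slc4a1 0.12 ± 0.13 and 0.21 ± 0.13, and Bpgm 0.01 ± 0.16 and 0.17 ± 0.16. None of these passed the test. The widest of their 95% intervals, those of Fech, ran from -0.45 to 0.33 in round and from -0.27 to 0.51 in condensing spermatids. The difference between both knockdown effects, condensing minus round, was called for 0 of 17 member probes, with a lowest adjusted p of 0.856 and 0 unadjusted p-values under 0.05. Over all probes 0.105% were called, 0.0105% higher and 0.0943% lower. For the globins this difference ran from -0.48 to 0.19, with standard errors of 0.21 to 0.44.

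Among the pathway lists, 0 of 4 other globins, 0 of 4 heme synthesis enzymes, 0 of 23 heme and iron genes and 0 of 17 erythroid genes were called for the knockdown at either stage by limma, as were 0 leukocyte, macrophage, Sertoli, Leydig or spermatid markers. Over all probes 0.00524% were called in round and 0.466% in condensing spermatids, so 0 calls in lists of this size say little about these genes. Of the endothelial markers, 1 of 6 was called lower in condensing knockdown samples, against 0.283% of all probes. The endothelial sums were 1034 to 1197 in these samples and 1140 to 1350 in condensing wild-type samples.

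**Figure D4:**
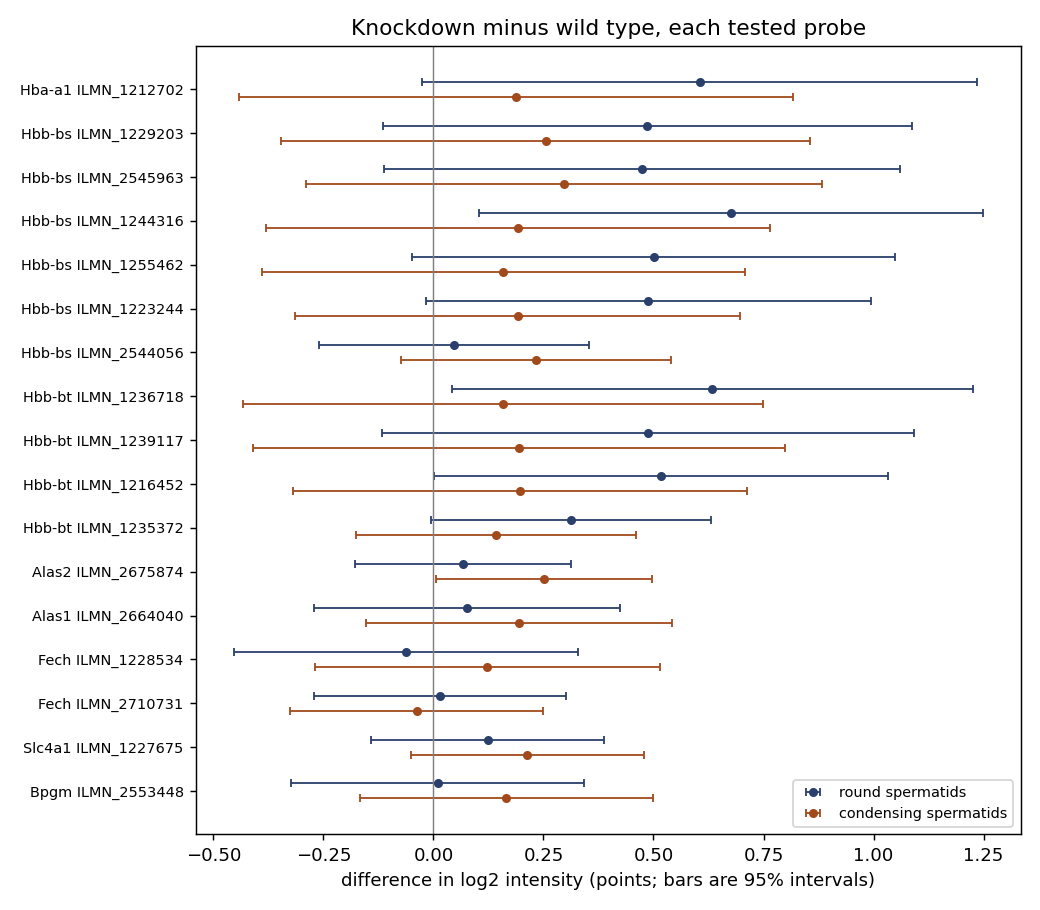
Knockdown minus wild type in log2 intensity of each of the 17 tested probes, in round and condensing spermatids, with 95% confidence intervals from the fit to all 24 arrays. The estimates of all 11 globin probes lie above 0 at both stages, and none passed the test after adjustment over 19086 probes.

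Within a stage, the member genes were compared array by array, as deviations from the group mean, against the brightest Hbb-bs probe, in 14 relations. Among the 12 round arrays the globins varied together. Hba-a1 followed Hbb-bs with a Pearson r of 0.962 (permutation p = 1e-05, the smallest that 100000 permutations can give, adjusted p = 0.00014) and a Spearman rho of 0.888 (permutation p = 0.00029, adjusted p = 0.00406). Hbb-bt followed with r = 0.970 (permutation p = 2e-05, adjusted p = 0.00014) and rho = 0.832 (permutation p = 0.0013, adjusted p = 0.00607). Without arrays 3 and 10, the farthest from the median, r was 0.958 and 0.954. These probes may share signal, so the relations are not between independent measurements.

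Alas1 ran against the globins among round arrays, with r = -0.881 (permutation p = 0.00013, adjusted p = 0.000607) and rho = -0.853 (permutation p = 0.00081, adjusted p = 0.00567), and with r = -0.748 when arrays 3 and 10 were left out. For Alas2 no such relation was detectable (r = -0.184, permutation p = 0.592, adjusted p = 0.637, rho = 0, permutation p = 1). Fech did not pass (r = -0.230, permutation p = 0.47, adjusted p = 0.548, rho = -0.413, permutation p = 0.183, adjusted p = 0.363). On round arrays Alas2 was detected on 3 of 6 in wild type and 4 of 6 in the knockdown. The Fech probe was detected on 4 of 6 in each genotype. Values so near background can hide a relation, so these 2 results do not show that there is none. Slc4a1 did not pass with r = 0.478 (permutation p = 0.115, adjusted p = 0.247) and rho = 0.629 (permutation p = 0.0312, adjusted p = 0.0729). The Slc4a1 probe was not detected on any round array, so this relation uses background values and has no weight. Bpgm did not pass with r = 0.546 (permutation p = 0.0671, adjusted p = 0.188) and rho = 0.650 (permutation p = 0.0255, adjusted p = 0.0713).

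Arrays 3 and 10, with the lowest globins and the highest Alas1 of their groups, also had the lowest macrophage sums, 430.6 and 382, and the lowest sums of other erythroid genes, 5751 and 5380. Lowest too were their sums of other heme synthesis enzymes, 732.6 and 683.5, and of heme and iron genes, 22510 and 21530. Their Leydig sums, 728.1 and 481.8, and leukocyte and platelet sums, 234.7 and 254.3, were not the lowest. Endothelial sums, 478.5 and 540.3, were lowest on array 10 alone, and Sertoli sums, 377.2 and 474.4, on array 3 alone. On arrays 3 and 10 the spermatid marker sums of 121600 and 130600 were the highest of their groups. Arrays 1, 2, 7, 11 and 12 had the highest globin share of signal in their groups. Their Sertoli sums were 383.2, 408, 379.2, 600.8 and 603.1, against 377.2 to 584.1 on the other round arrays. Macrophage sums were 618.7, 563, 634.7, 635.9 and 606.4, against 382 to 677.3. Endothelial sums were 521.7, 476.6, 626.4, 552.9 and 607.6, against 478.5 to 588.1. Leydig sums were 363, 316, 551.1, 708.4 and 707.2, against 422.3 to 748.5. Leukocyte and platelet sums were 279.1, 261.1, 236.2, 266.1 and 251.7, against 234.2 to 254.3. What sets these array differences was not tested.

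Among the 12 condensing arrays the spread of Hbb-bs was small. Hba-a1 gave r = 0.574 (permutation p = 0.0496, adjusted p = 0.173) and rho = 0.739 (permutation p = 0.00796, adjusted p = 0.0279), so that the relation passed on ranks alone, and r was 0.679 without arrays 20 and 24. The relations of the other 6 genes in condensing samples did not pass, with r from -0.472 for Fech to 0.385 for Bpgm and adjusted permutation p-values of at least 0.247 for r and 0.363 for rho. Of the 14 relations 3 passed by Pearson r after adjustment, and from 2 to 5 did over the other settings.

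**Figure D5:**
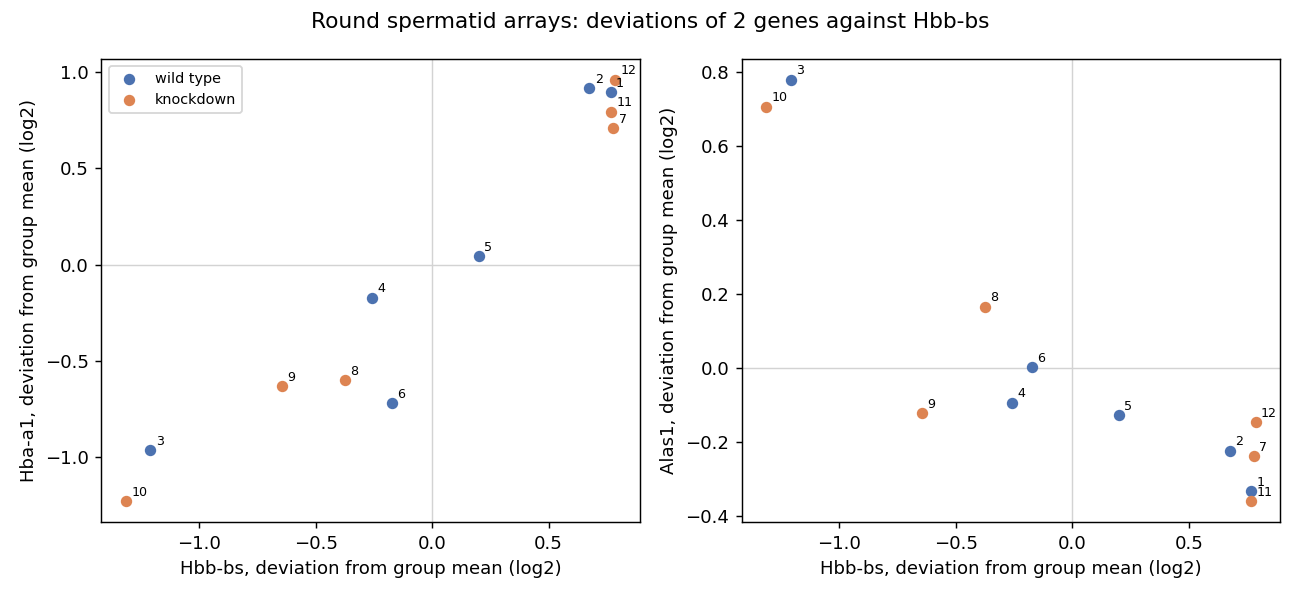
Deviation of Hba-a1 (left) and Alas1 (right) from the group mean on each of the 12 round arrays, against that of Hbb-bs, on the log2 scale, with array numbers. Hba-a1 rises with Hbb-bs (r = 0.962) and Alas1 falls (r = -0.881), and arrays 3 and 10 lie at the low end of Hbb-bs.

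The genes most like Alas2 in their deviations over all 24 arrays, among 10751 genes, were Zfp768 (r = 0.784), Hif1an (r = 0.769), Surf1 (r = 0.697), Ppt2 (r = 0.631) and B430306N03Rik (r = 0.628). These are the highest of many correlations and are given as a description with no test. None of them was called higher at the condensing stage in wild type, where Zfp768 was at -1.16, Hif1an at -0.79, Surf1 at 0.25 and Ppt2 at -0.10 log2, and B430306N03Rik was near 0 (adjusted p = 0.998).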

How the data were processed

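For each of 24 arrays the first deposited table lists, per the file headers, an unnormalized bead intensity (linear scale) and a detection p-value for 45281 probes. A second table that the authors deposited holds intensity values whose distribution is the same on every array, as quantile normalization leaves it. The software behind both tables is not given in the sources used here. RNA was labelled as biotinylated cRNA, per the labels' protocols.

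The unnormalized intensities were the input of every fit except that to the authors' values. Their background was removed by the normexp method of limma 3.58.1 (R 4.3.3), with noise inferred from the detection p-values and an offset of 16, followed by quantile normalization and log2, as neqc does. The filter kept 19086 probes, those with a detection p under 0.05 on 6 or more arrays. The limma model (lmFit and eBayes, two-sided) held 4 group means. P-values were adjusted by Benjamini-Hochberg over all probes tested, and an adjusted p under 0.05 is a call. Errors of differences are standard errors, and those of levels are SDs over 6 arrays. The median 95% interval reached 0.29 log2 to either side. The fit was tested on simulated data.

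Probe symbols come from the platform annotation supplied for the arrays, updated to the RefSeq symbol of the same gene identifier where there was one. In all 34885 probes had 1 symbol, 18 had several and 10378 had none. All member probes are named. Of the lists of other globins, heme and iron handling, erythroid and blood genes, up to 4 called genes with the largest wild-type stage difference are named, and all measured enzymes of heme synthesis. Further genes are named for how they were detected. The members, lists and markers were chosen with earlier results of these data known. List counts and differences use the brightest passing probe per gene. List sums use the brightest probe whether or not it passed, so they include values at background. Alternatives were no background correction, another offset, 2 median scalings, the authors' values, other filters, 1 probe per gene, array weights and omitted arrays. Coordinates are those of RefSeq promoter windows on GRCm38.p6. The files name no genome build.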

Additional observations from a re-analysis of the deposited data

Results flagged for a closer look

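In 80 groups of 6 values (20 probes in 4 groups), Dixon's test at its 95% critical value singled out 2 arrays, and chance singles out about 1 in 20 groups. Alas1 (ILMN_2664040) stood at 12.73 log2 on wild-type round replicate 3, against 11.62 to 11.96 on the other 5 arrays of the group, a ratio of 0.699. Fech (ILMN_2710731) stood at 5.54 log2 on knockdown condensing replicate 22, against 4.69 to 5.01 on the others, a ratio of 0.629, and replicate 22 was the single array of its group on which this probe was detected.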

How the results depend on the processing

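The count of member probes called for the stage was 14 of 17 (wild type) and 15 of 17 (knockdown). These counts ran from 6 to 17 and from 7 to 16 over the other settings. The low ends, 6 and 7, come from 1 probe per gene, which leaves 8 probes. Over omissions of 1 array both counts ran from 14 to 15, and the knockdown comparisons had 0 calls under every setting and omission run. The 11 globin probes, Alas2, Alas1 and Slc4a1 kept their stage direction and call wherever tested. Without background correction the dim probes gave smaller rises in wild type, down to 1.93 for Alas2, 2.74 for ILMN_1235372 of Hbb-bt, 4.49 for ILMN_2544056 of Hbb-bs and 0.26 for Slc4a1, and Hba-a1 went down to 5.83 with the authors' values. Median scaling moved the median of all probes in wild type from -0.06 to -0.34, and scaling over the 11962 probes detected on all arrays, added after that was seen, moved it to 0.27.

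Directions turned for uncalled or dim probes. In wild type, median scaling gave the stage difference as -0.081 for Fech (ILMN_1228534) and -0.050 for Bpgm, and scaling over detected probes gave 0.53 and 0.56 (adjusted p = 0.0145 and 0.00269), with 0.440 (0.00758) for Fech ILMN_2710731. In the knockdown that scaling gave 0.269 (0.0946) for ILMN_2710731 and 0.62 (0.00528) for ILMN_1228534. In round spermatids the knockdown effect was -0.0085 for Alas1 and for Bpgm with median scaling and -0.057 for ILMN_2544056 with array weights. The difference between knockdown effects was 0.0286 for ILMN_1235372 without background correction and with the authors' values, and -0.033 for Slc4a1 with scaling over detected probes. The Bpgm call in the knockdown was lost with median scaling (0.18, adjusted p = 0.32), no filter (0.42, 0.0611) and array weights (0.36, 0.0528), and its wild-type value passed without array 13 (0.39, 0.0279). Relations past the threshold, 3 in the main fit, numbered from 2 to 5 over the other settings, with 5 under median scaling. Which relation was lost at the low end is not given here.

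With 1 array left out, the wild-type stage difference of Fech ILMN_1228534 ran from -0.0205 to 0.208. Knockdown effects in round spermatids ran from -0.0581 to 0.128 for ILMN_2544056, -0.0659 to 0.234 for Alas1, -0.193 to 0.0524 and -0.0378 to 0.0867 for both Fech probes and -0.0303 to 0.0839 for Bpgm, and in condensing spermatids from -0.162 to 0.0468 for ILMN_2710731. The difference between them ran from -0.498 to 0.0065 and -0.422 to 0.0477 for Hbb-bs ILMN_1229203 and ILMN_2545963, -0.0377 to 0.261 for Alas1 and -0.177 to 0.0316 for ILMN_2710731. The cause of these turns was not tested. The slide could not be used as a block, since the headers name none. No paired analysis was possible because the groups share no replicate numbers.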
